A study of Mus musculus with 6 samples.

Results

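Expression of 44 genes of the transforming growth factor beta (TGF-beta) and bone morphogenetic protein (BMP) pathways was examined in cardiomyocytes of mouse embryos with and without the Hippo effector Yap. The members, and the other gene lists used below, were chosen by name with earlier results of these data known. The shares of them that rose or fell are therefore descriptions. Each member was read from the probe set whose only annotated symbol was that gene. All 44 members were found among the 19938 genes with such a probe set, each with 1 probe set. The members comprised 12 ligands, 11 receptors, 8 Smads, 4 Id genes and 9 extracellular or membrane regulators. Of these, 42 passed a filter on dim probe sets and were tested, and Inhbb and Grem1 did not.

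The study measured RNA on 6 Affymetrix mouse gene arrays, 3 from Yap HET and 3 from Yap KO embryos at E12.5, described as biological replicates. Both kinds of embryo came from crosses of TNTCre mice, in which the cardiac troponin T promoter drives Cre recombinase, Yap flox mice and R26 mTmG mice, whose cells turn green once Cre has acted. Hearts were digested one by one and their green cells sorted, so Cre and the reporter were active in the cells of both groups. Yap HET, read here as heterozygous for Yap, served as the control, and embryos with full Yap were not part of the comparison. The alleles of each group beyond these names, litters and any pooling of hearts are not stated in the labels, so the p-values measure the spread between these preparations. Yap1 read 886, 927 and 871 on Yap HET arrays, against 103, 84.7 and 86.6 on Yap KO arrays, a log2 change of -3.29 ± 0.08 (limma adjusted p = 2.70e-06). Intensities in Yap KO cells lay near the filter level of 85.7, the 40th percentile of probe set means. No detection call was used, so how far background limits the size of this fall is not known. Median intensity over all probe sets was 136, 132 and 140 on Yap HET arrays and 133, 130 and 128 on Yap KO arrays. Across genes, which are not independent replicates, arrays of a group correlated at 0.992 to 0.996. Arrays of different groups correlated at 0.984 to 0.991. Of 12 cardiomyocyte markers, 0 passed the limma test (before adjustment 0 rose and 1 fell), and their summed intensity ran from 81275 to 82626 (Yap HET) and from 80302 to 82539 (Yap KO).

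Ligands of the family are secreted as dimers, and the TGF-beta isoforms are held in the matrix by latent TGF-beta binding proteins until they are released. A ligand joins type II and type I receptors, which are serine/threonine kinases, and the type I receptor phosphorylates receptor Smads: Smad2 and Smad3 after TGF-beta or activin, Smad1, Smad5 and Smad9 after BMP. These bind Smad4 and enter the nucleus, where BMP signals induce Id genes and both branches induce the inhibitory Smads, Smad6 and Smad7. In the embryonic heart, Bmp2 is made by the myocardium of the atrioventricular canal and acts on the endocardial cushions, Bmp10 is made by trabecular myocardium and sustains its growth, and TGF-beta ligands act in the cushions that form valves.

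Upstream sequences of Id2, Id3, Id4 and Tgfb1 are shown because Id3, Id4 and Tgfb1 rose whereas Id2 did not pass the test, as given with their values. No window was at hand for Id1, which also did not pass, so Id2 is the only unchanged Id gene shown. Each is the 250 bases before the annotated start, 5′ to 3′ on the strand of the gene, from RefSeq on build GRCm38.p6, and capitals mark the words GGAATG or CATTCC, which TEAD factors, the DNA-binding partners of Yap, recognise, and GGCGCC, a GC-rich word bound by BMP Smads. The windows are chr12:25096093-25096342 on the minus strand for Id2 and, on the plus strand, chr4:136143572-136143821 for Id3, chr13:48260866-48261115 for Id4 and chr7:25686752-25687001 for Tgfb1.
Id2: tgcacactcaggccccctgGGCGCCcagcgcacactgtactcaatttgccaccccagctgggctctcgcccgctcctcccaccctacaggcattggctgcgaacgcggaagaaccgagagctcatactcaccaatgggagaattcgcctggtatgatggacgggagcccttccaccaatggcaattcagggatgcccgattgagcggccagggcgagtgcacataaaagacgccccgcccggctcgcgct
Id3: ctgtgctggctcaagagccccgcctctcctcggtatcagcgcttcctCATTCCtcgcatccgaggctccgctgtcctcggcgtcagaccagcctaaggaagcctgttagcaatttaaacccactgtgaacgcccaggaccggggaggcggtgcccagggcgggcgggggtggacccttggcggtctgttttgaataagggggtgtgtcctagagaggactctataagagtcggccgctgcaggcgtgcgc
Id4: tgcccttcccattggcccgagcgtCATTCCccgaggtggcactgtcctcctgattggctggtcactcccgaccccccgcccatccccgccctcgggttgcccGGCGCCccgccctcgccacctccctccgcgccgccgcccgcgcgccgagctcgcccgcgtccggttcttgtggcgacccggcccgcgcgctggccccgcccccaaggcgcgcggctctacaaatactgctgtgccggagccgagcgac
Tgfb1: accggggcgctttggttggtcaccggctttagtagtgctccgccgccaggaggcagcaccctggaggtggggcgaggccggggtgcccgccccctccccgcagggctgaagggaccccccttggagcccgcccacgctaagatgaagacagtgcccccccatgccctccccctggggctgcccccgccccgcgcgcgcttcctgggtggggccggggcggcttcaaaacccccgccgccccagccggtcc
In Id3 the word CATTCC, the other strand of GGAATG, lay 203 to 198 bases before the start, and in Id4 it lay 226 to 221 bases before it. GGCGCC was found 148 to 143 bases before the start of Id4 and 231 to 226 bases before that of Id2, and neither word was found in the Tgfb1 window. RefSeq windows were at hand for 32 of the 44 members, 40 windows in all, some genes having several starts. The TEAD word on either strand was in 2 of these 40 windows (5.0%), those of Id3 and Id4, against 12.6% of all 32851 windows of the same length. GGCGCC, which reads the same on both strands, was in 10 of the 40 (25.0%) against 9.59% of all windows. These were windows of Ltbp4, Id2, Id4, Tgfbr1, Bmpr1a, Bmpr2, Smad5, Smad9 and Grem1, of which Ltbp4 and Id4 rose. The palindrome GTCTAGAC, the optimal Smad3 and Smad4 word, was in 0 of the 40 windows and in 0.167% of all. A match is a description of the letters, not a binding site.

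Markers of some other cell types rose beside the members, and those of others did not. For comparison, 5.16% of all genes tested rose and 4.76% fell at a limma adjusted p under 0.05. Of 12 cushion mesenchyme and fibroblast markers, 4 rose and 0 fell. Those that rose were Pdgfra (0.98 ± 0.10), Postn (0.72 ± 0.13), Sox9 (0.39 ± 0.07) and Vcan (0.33 ± 0.05, log2 changes, Yap KO minus Yap HET, with SE). Before adjustment limma put 8 up and 0 down, 10 of the 12 had a log2 change above 0, and the median was 0.32. The summed intensity of the 12 markers was 11557 to 11694 for Yap HET and 13493 to 15300.1 for Yap KO. Of 13 endocardial and endothelial markers tested, Kdr (0.76 ± 0.05), Eng (0.52 ± 0.08), Ramp2 (0.35 ± 0.09) and Nfatc1 (0.31 ± 0.08) rose and Npr3 (-0.34 ± 0.06) fell. Of the 13, 4 had a log2 change below 0, the median was 0.13 and, before adjustment, limma put 6 up and 1 down. The sums over 14 markers were 2227 to 2377 and 2566 to 2751. Of 8 smooth muscle and pericyte markers, Pdgfrb (0.73 ± 0.08) and Cspg4 (0.34 ± 0.07) rose, with sums of 6460 to 6514 and 7298 to 7824. However, 3 of the 8 had a log2 change below 0 and, before adjustment, limma put 4 up and 1 down. Of 8 epicardial markers Tcf21 (0.93 ± 0.17) rose, but 6 of the 8 had a log2 change below 0, the median was -0.26 and, before adjustment, limma put 1 up and 4 down, while the sums, 3652 to 4361 and 2657 to 3783, overlapped. Of 5 myeloid markers tested Lyz2 (0.47 ± 0.11) rose, but 4 of the 5 were below 0, with a median of -0.17 and, before adjustment, 1 up and 3 down. Among 6 erythroid and 2 neural markers tested, 0 passed with limma (before adjustment, 1 erythroid marker rose and 0 fell), and the erythroid sum was highest on Yap KO replicate 1, at 2834 against 540 to 1274 on the other arrays. No marker of these lists was listed at 0. In sorted bulk RNA, fewer cells of a type and less RNA per cell cannot be told apart. The members are not particular to cardiomyocytes, and the part of other cell types in their changes was not tested.

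Across the whole set more members rose than fell in Yap KO cells. Of 42 tested, 12 rose (28.6%) and 1 fell (2.38%) at a limma adjusted p under 0.05, against 5.16% and 4.76% of all 13632 genes tested (9.93% in either direction). The members that rose were the ligand genes Bmp2 and Tgfb1, the receptor genes Acvr1b and Acvr2a, the Smad genes Smad4, Smad6 and Smad7, the Id genes Id3 and Id4, and the regulators Ltbp1, Ltbp4 and Bmper. Bmpr1b, a type I receptor gene, fell. All changes were under 2-fold, from 1.63-fold for Ltbp4 down to 1.14-fold for Acvr2a. In 21 of the 42 all Yap KO values lay above all Yap HET values, against 16.7% of all genes tested, and in 4 they lay below, against 17.2% (33.9% without overlap in either direction). The median log2 change (Yap KO minus Yap HET) was 0.12 over the members and -0.02 over all genes tested. Dropping 1 array lowered the 12 rises to 4 when it was Yap HET replicate 1 or Yap KO replicate 2, to 5 when it was Yap KO replicate 1, and to 6 when it was replicate 3 of either group. Bmp2, Ltbp1 and Ltbp4 were called whichever single array was left out. The fall of Bmpr1b was lost without replicate 1 or 3 of Yap HET or replicate 1 or 2 of Yap KO (limma adjusted p = 0.107 to 0.151), and without Yap HET replicate 2 the falls were 2, Bmpr1b and Fst.

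**Figure D1:**
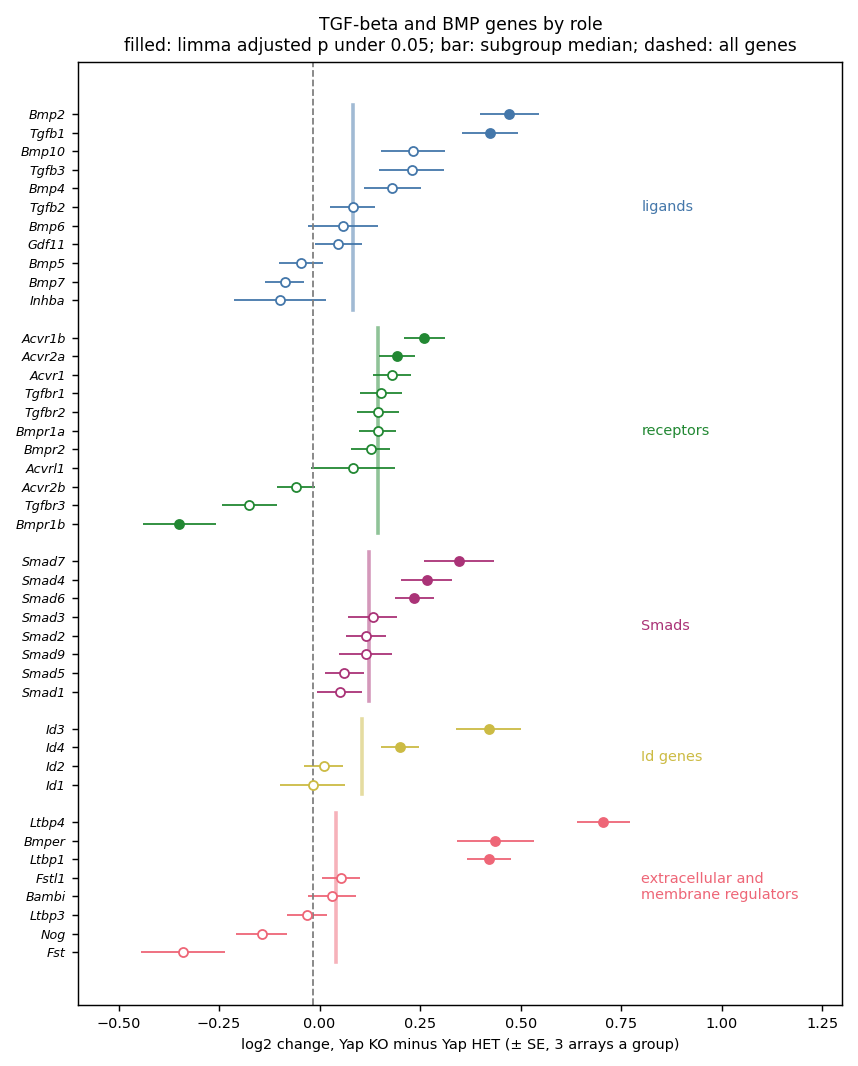
Log2 change in intensity (Yap KO minus Yap HET, points with SE from limma, 3 arrays a group) of the 42 tested members, grouped by role. Filled points passed a limma adjusted p of 0.05, coloured bars are subgroup medians and the dashed line is the median of all genes tested; filled points lie to the right in every group, except that of Bmpr1b at -0.35.

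The subgroups differed little in their median change and more in how far their members spread. The median log2 change was 0.14 over 11 receptors, 0.12 over 8 Smads, 0.10 over 4 Id genes, 0.08 over 11 tested ligands and 0.04 over 8 tested regulators. The order is not stable: the ligand median was 0.154 without Yap KO replicate 1, just above 0.147 for receptors. With array weights it was 0.0415, just under 0.0423 for regulators. Leaving out Yap HET replicate 2 put the Smad median, 0.17, above that of receptors, 0.13. The regulator median was 0.03 without Yap HET replicate 3 or without Yap KO replicate 1 and 0.07 without Yap KO replicate 3, the lowest each time. Median centring kept the order and raised every median, to 0.14 for ligands, 0.10 for regulators and 0.04 for all genes tested. Regulators had the widest spread, from -0.34 for Fst to 0.71 for Ltbp4, and their median absolute change of 0.24 compares with 0.12 for the Smads and 0.10 for all genes tested. Smads had the narrowest, from 0.05 to 0.35, and every one of the 8 had a log2 change above 0, also with the other 3 scalings and with any array left out, but 7 of 8 with array weights, where Smad1 was below 0. Receptors had 7 of 11 members with all Yap KO values above all Yap HET values and ligands 3 of 11, against 16.7% of all genes tested. Of the tested members 32 had a log2 change above 0 (76.2%), against 45.0% of all genes tested. Members share the same 6 arrays, so these medians are descriptions of the lists.

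Among the ligands, Bmp2 and Tgfb1 rose and the other 9 tested did not pass. Bmp2, which drives cushion formation next to the atrioventricular canal, had intensities of 830.1, 841 and 809.8 on Yap HET arrays, against 1284, 1085 and 1084 on Yap KO arrays. Yap KO replicate 1 was the highest, and the groups did not overlap. The level was 1.39-fold higher (log2 change 0.47 ± 0.07, limma adjusted p = 0.0101), and the adjusted p was at most 0.0449 with any single array left out. Tgfb1, a TGF-beta isoform with wide roles in matrix production, read 186, 161 and 158 (Yap HET) and 224, 229 and 224 (Yap KO). All Yap KO values were close together and above Yap HET replicate 1, the highest of the controls. This was a 1.34-fold higher level (log2 change 0.42 ± 0.07, limma adjusted p = 0.0114), and the call ended without Yap KO replicate 2 (limma adjusted p = 0.0542).

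The other TGF-beta isoforms, Tgfb2 and Tgfb3, both expressed in the developing cushions and outflow tract, had log2 changes of 0.08 ± 0.06 and 0.23 ± 0.08 (limma adjusted p = 0.383 and 0.114). Tgfb2 read 1749, 1664 and 1597 (Yap HET) and 1811, 1799 and 1693 (Yap KO), and Tgfb3 read 448, 479 and 406 (Yap HET) and 539, 475 and 548 (Yap KO). For both, groups overlapped. Bmp10, the trabecular growth factor gene, had 991, 1150.3 and 1146 on Yap HET arrays, against 1346, 1333 and 1179.8 on Yap KO arrays; its groups did not overlap, but the spread within each was wide (log2 change 0.23 ± 0.08, limma adjusted p = 0.109). Bmp10 passed with median centring (limma adjusted p = 0.0433), a trended prior (0.0258) and array weights (0.00573). Median centring raised its log2 change to 0.29. The array weights lean on Yap HET replicate 1 (7.597, against 0.439 and 0.426 for replicates 2 and 3), which held the lowest Bmp10 value. Without that array Bmp10 did not pass (limma adjusted p = 0.286). Bmp4, which acts in the outflow tract, had 2142 ± 160.0 for Yap HET against 2426 ± 133 for Yap KO (SD, n = 3) and a log2 change of 0.18 ± 0.07 (limma adjusted p = 0.146). Bmp7, a myocardial ligand gene, read 3546, 3597 and 3409 (Yap HET) and 3315, 3319.6 and 3296 (Yap KO), slightly lower on every Yap KO array (log2 change -0.09 ± 0.05, limma adjusted p = 0.274). Bmp5 and Bmp6, related to Bmp7, had log2 changes of -0.05 ± 0.06 and 0.06 ± 0.09, and Gdf11, a ligand gene of the activin branch, 0.05 ± 0.06. Inhba, which encodes an activin subunit, had -0.10 ± 0.11, with the highest value, 272, on Yap HET replicate 1 and the lowest, 191, on Yap KO replicate 1. Inhbb, which encodes the other activin subunit of the list, was under the filter level of 85.7 on 4 of 6 arrays. It read 92.7, 73.2 and 92.6 (Yap HET) and 73.7, 77.0 and 84.4 (Yap KO), close to that level, and was not tested.

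**Figure D2:**
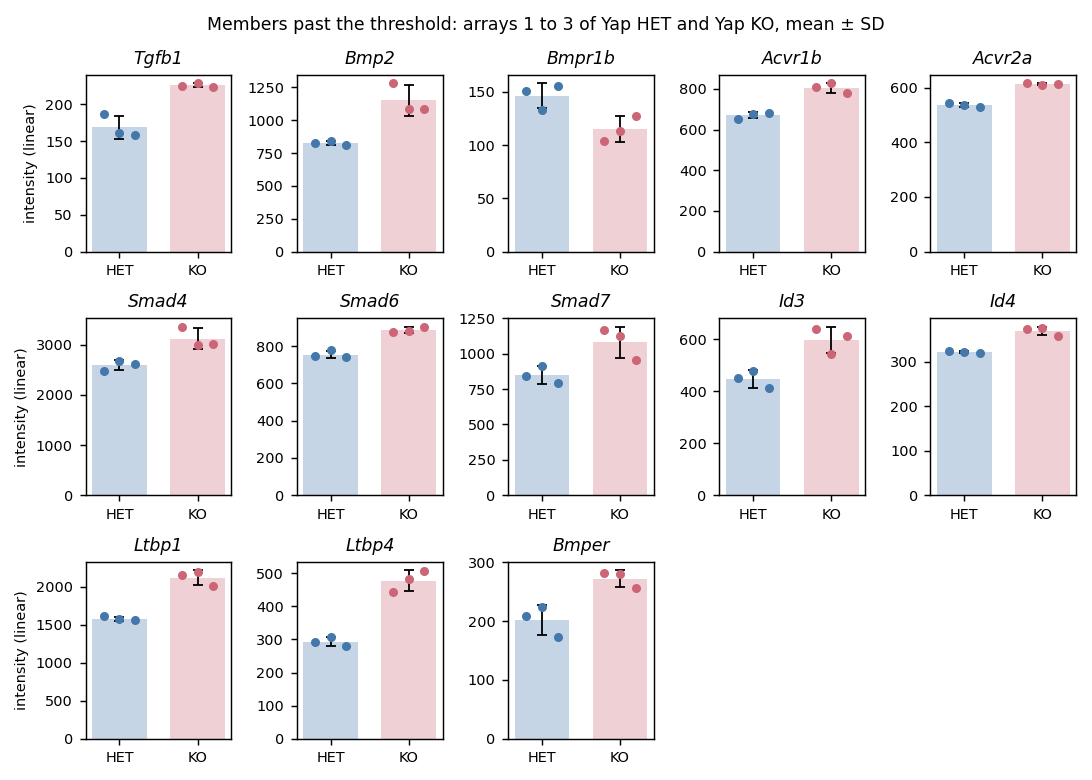
Intensity on a linear axis from 0 for each of the 13 members past the threshold, in Yap HET (blue) and Yap KO (red) cells; points are arrays 1 to 3 from left to right, bars are means and error bars SD of 3 arrays. In all 13 panels the points of the groups are separate, and Bmpr1b is the panel in which the Yap KO points are lower.

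Of 11 receptor genes, Acvr1b and Acvr2a rose, Bmpr1b fell and the other 8 did not pass. Acvr1b, which encodes the type I receptor ALK4 of activin, read 654, 678 and 682 on Yap HET arrays, against 807, 828 and 779 on Yap KO arrays. Every Yap KO array was above every Yap HET array, a 1.20-fold difference (log2 change 0.26 ± 0.05, limma adjusted p = 0.0200). The limma adjusted p rose to 0.0896 when Yap HET replicate 1 was dropped and to 0.0915 when Yap KO replicate 2 was, which ended the call. Acvr2a, a type II receptor gene used by activins and BMPs, read 544, 535 and 529.5 (Yap HET) and 617, 609 and 613 (Yap KO), with a very small spread in each group. Its 1.14-fold higher level (log2 change 0.19 ± 0.05, limma adjusted p = 0.0389) was not called whichever array was left out (limma adjusted p = 0.0621 to 0.128). Among BMP type I receptor genes, Bmpr1b passed the test and Bmpr1a and Acvr1 did not. Bmpr1b read 151, 133 and 156 on Yap HET arrays, against 104, 114 and 128 on Yap KO arrays, a 1.27-fold fall (log2 change -0.35 ± 0.09, limma adjusted p = 0.0493) that was also lost with quantile normalization (limma adjusted p = 0.0795), median centring (0.0658) and cyclic loess (0.0615). Bmpr1a, the main BMP type I receptor gene of cardiomyocytes, read 1899, 1841 and 1909 (Yap HET) and 2073, 2072 and 2097 (Yap KO); the groups did not overlap, and the log2 change of 0.14 ± 0.05 did not pass (limma adjusted p = 0.0915).

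Acvr1, which encodes the BMP type I receptor ALK2, lay just outside the threshold, with 821, 827 and 817 (Yap HET) and 940.4, 903 and 951 (Yap KO) (log2 change 0.18 ± 0.05, limma adjusted p = 0.0542), and passed with each of the 3 other scalings. The TGF-beta receptor genes Tgfbr1 and Tgfbr2 and the BMP type II receptor gene Bmpr2 had log2 changes of 0.15 ± 0.05, 0.14 ± 0.05 and 0.13 ± 0.05, each with groups that did not overlap and limma adjusted p of 0.105, 0.118 and 0.133. Bmpr2, the brightest receptor probe set, read 2002, 1919.8 and 1935 (Yap HET) and 2178, 2112 and 2106 (Yap KO). Tgfbr3, the coreceptor betaglycan, read 777, 919.9 and 853 (Yap HET) and 768, 742 and 745 (Yap KO), lower on all Yap KO arrays and short of the threshold (log2 change -0.17 ± 0.07, limma adjusted p = 0.143). Acvr2b, the paralog of Acvr2a, changed by -0.06 ± 0.05 with overlapping groups. Acvrl1, which encodes the mainly endothelial receptor ALK1, had 0.08 ± 0.10 with intensities between 106 and 139, both from Yap HET arrays.

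In the Smad family the inhibitory and common members rose and the receptor Smads did not pass. Smad6, which restrains BMP signals, read 745, 777 and 739 on Yap HET arrays, against 877, 881 and 905 on Yap KO arrays, a 1.18-fold higher level (log2 change 0.24 ± 0.05, limma adjusted p = 0.0255). Smad7, which restrains both branches, read 845, 913 and 791 on Yap HET arrays, against 1165, 1124 and 958 on Yap KO arrays. Yap KO replicate 3 was the lowest of its group and still above all Yap HET values, and the level was 1.27-fold higher (log2 change 0.35 ± 0.09, limma adjusted p = 0.0467). Smad4, the partner of all receptor Smads, read 2486, 2674 and 2611 on Yap HET arrays, against 3364, 2986 and 3007 on Yap KO arrays, with Yap KO replicate 1 the highest. It was 1.20-fold higher (log2 change 0.27 ± 0.06, limma adjusted p = 0.0399). These 3 calls were close to the threshold. Smad4 and Smad6 were called without Yap HET replicate 2 and lost their call without each of the other 5 arrays (limma adjusted p = 0.0777 to 0.140 for Smad4 and 0.0502 to 0.104 for Smad6). Smad7 lost it without replicate 1 or 3 of Yap HET, or replicate 1 or 2 of Yap KO, (limma adjusted p = 0.107 to 0.158). Of the receptor Smads on the TGF-beta side, Smad2 read 1433, 1402 and 1387 (Yap HET) and 1481, 1516 and 1574 (Yap KO) and Smad3 1260.4, 1385 and 1261 (Yap HET) and 1495, 1400.0 and 1383 (Yap KO). Smad2 did not overlap between groups and Smad3 did, and their log2 changes were 0.11 ± 0.05 and 0.13 ± 0.06 (limma adjusted p = 0.176 and 0.200). On the BMP side, Smad1, Smad5 and Smad9 had log2 changes of 0.05 ± 0.06, 0.06 ± 0.05 and 0.11 ± 0.07 (limma adjusted p = 0.594, 0.445 and 0.292).

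Id genes encode helix-loop-helix proteins that block E-box transcription factors and are induced by BMP Smads in many cells. Id3 read 453, 478 and 412 on Yap HET arrays, against 642, 544 and 613 on Yap KO arrays, with every Yap KO value above every Yap HET value. The level was 1.34-fold higher (log2 change 0.42 ± 0.08, limma adjusted p = 0.0201). Id4 read 325, 322 and 319 on Yap HET arrays, against 374, 376 and 359 on Yap KO arrays, a 1.15-fold higher level with little spread (log2 change 0.20 ± 0.05, limma adjusted p = 0.0398). By contrast, Id1 read 457, 503 and 412 (Yap HET) and 464, 465 and 425 (Yap KO) and Id2 read 4422, 4314 and 4238 (Yap HET) and 4460.1, 4298 and 4312 (Yap KO), with overlapping groups and log2 changes of -0.02 ± 0.08 and 0.01 ± 0.05 (limma adjusted p = 0.914 and 0.910). The sign of Id1 and Id2 turned in 3 of the 17 alternative settings each. Id3 lost its call without replicate 1 or 3 of either group (limma adjusted p = 0.0504 to 0.0695), and Id4 lost it whichever array was left out (0.0626 to 0.147).

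Regulators outside the cell held the largest change of the set, that of Ltbp4. Ltbp4, a latent TGF-beta binding protein that also guides elastic fibre assembly, read 291, 307 and 281 on Yap HET arrays, against 444, 484 and 506 on Yap KO arrays. All Yap KO arrays were well above the Yap HET range, a 1.63-fold higher level (log2 change 0.71 ± 0.07, limma adjusted p = 0.00184). Ltbp1, which tethers latent TGF-beta to the matrix, read 1609, 1576 and 1557 on Yap HET arrays, against 2151, 2199.7 and 2005 on Yap KO arrays, 1.34-fold higher and again without overlap (log2 change 0.42 ± 0.05, limma adjusted p = 0.00490). Both passed in each of the 17 alternative settings. The highest adjusted p, 0.0400 for Ltbp4 and 0.0433 for Ltbp1, came from the t test of the unmoderated linear model. Ltbp3, the third member of that family in the list, read 490.3, 469 and 469 (Yap HET) and 460.0, 458 and 478 (Yap KO) and its log2 change was -0.03 ± 0.05 (limma adjusted p = 0.715). Bmper, a secreted BMP-binding protein, read 209, 224 and 174 on Yap HET arrays, against 282, 279 and 255 on Yap KO arrays. Yap HET replicate 3 was the lowest, and the level was 1.35-fold higher (log2 change 0.44 ± 0.10, limma adjusted p = 0.0297). It was not called without Yap HET replicate 1 or any 1 of the Yap KO arrays (limma adjusted p = 0.0561 to 0.114).

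Fst, which encodes follistatin, an activin antagonist, had the largest downward change among the 29 tested members that did not pass. It read 485, 401 and 546 on Yap HET arrays, against 383, 381 and 358 on Yap KO arrays, lower on all Yap KO arrays but with a wide Yap HET spread (log2 change -0.34 ± 0.11, limma adjusted p = 0.0820). Without Yap HET replicate 2, the lowest control, Fst was called lower (limma adjusted p = 0.0133). Nog, the BMP antagonist noggin, read 131, 127 and 138 (Yap HET) and 112, 127 and 119.5 (Yap KO), with Yap HET replicate 2 level with Yap KO replicate 2 (log2 change -0.14 ± 0.06, limma adjusted p = 0.187). Bambi, a membrane pseudoreceptor, changed by 0.03 ± 0.06 on the log2 scale and Fstl1, a secreted follistatin-like glycoprotein, one of 0.05 ± 0.05. Fstl1 read 4472, 4484 and 4309 (Yap HET) and 4542, 4669 and 4547 (Yap KO), a separation of the groups that is small beside the spread (limma adjusted p = 0.509). Grem1, the BMP antagonist gremlin, was under the filter level on 4 of 6 arrays, with 78.3, 80.0 and 95.2 (Yap HET) and 78.2, 72.3 and 87.2 (Yap KO), and was not tested.

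Ratios of related members within each array do not depend on a single scaling factor per array. Quantile normalization and cyclic loess, which scale by intensity, can change them. The 8 pairs described were chosen after their values were seen, each setting a called member against one that was not called, so that their separation of the groups is a description. The log2 ratio of Ltbp4 to Ltbp3 was 0.74 ± 0.06 (SE) higher in Yap KO cells, that of Ltbp1 to Ltbp3 0.45 ± 0.06, that of Bmp2 to Bmp7 0.56 ± 0.08 and that of Tgfb1 to Tgfb2 0.34 ± 0.05. Inside the cell, the ratio of Id3 to Id1 was 0.44 ± 0.10 higher and that of Smad7 to Smad1 0.30 ± 0.11 higher. Among receptors, Acvr2a against Acvr2b was 0.25 ± 0.03 higher, and Bmpr1b against Bmpr1a changed by -0.49 ± 0.10. The two-sided exact permutation p was 0.1 for each pair and 0.1 after adjustment over the 8, the smallest that 3 arrays against 3 allow, so no pair could pass 0.05.

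**Figure D3:**
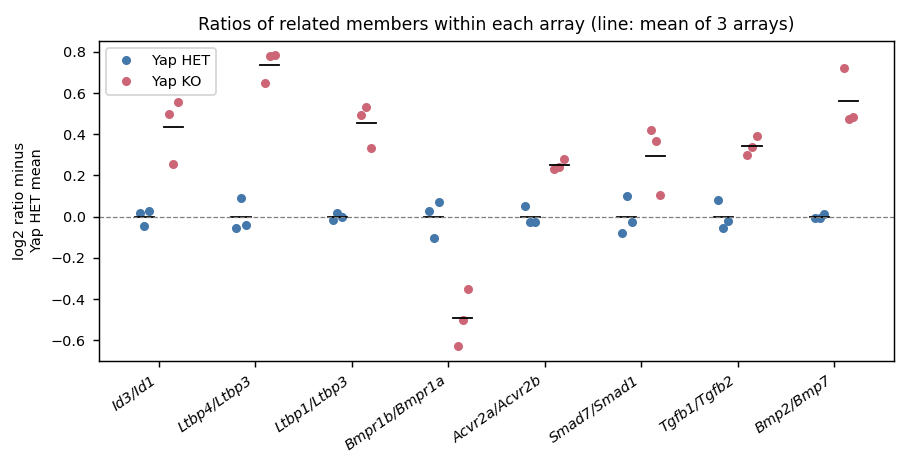
Log2 ratio of the intensities of related members within each array, minus the Yap HET mean of that ratio, for 8 pairs in Yap HET (blue) and Yap KO (red) cells; points are single arrays and lines are means of 3. Red points lie above blue for 7 pairs, by 0.25 to 0.74 on average, and below for Bmpr1b over Bmpr1a, by 0.49.

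Other genes of the pathway were taken from lists that do not hold the members. Over all of them, 12 of 93 tested rose (12.9%) and 2 fell (2.15%), against 5.16% and 4.76% of all genes tested, with a median log2 change of 0.001. Of 9 other ligands tested, limma called 0 (before adjustment, 0 rose and 1 fell). Of 5 other receptors and coreceptors tested, 1 rose and 1 fell. Eng, which encodes the endothelial coreceptor endoglin, read 212, 205 and 213 on Yap HET arrays, against 266, 338 and 303 on Yap KO arrays (log2 change 0.52 ± 0.08, limma adjusted p = 0.0113), and Acvr1c, the gene of the type I receptor ALK7, read 364, 330.4 and 371 on Yap HET arrays, against 257, 283 and 255 on Yap KO arrays (log2 change -0.42 ± 0.07, limma adjusted p = 0.0105). Of 22 other extracellular regulators and activators, 4 rose and 0 fell (limma before adjustment, 7 and 1). These were Itgav, the integrin subunit that activates latent TGF-beta (log2 change 0.53 ± 0.05, limma adjusted p = 0.00238), the protease gene Htra1 (0.55 ± 0.13), the proteoglycan gene Bgn (0.53 ± 0.12) and Fbn2, a fibrillin gene (0.20 ± 0.05). Itgav had the tightest separation of these, with 961, 1019.9 and 1011 (Yap HET) and 1463, 1475 and 1388 (Yap KO).

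Genes that relay or answer the signal formed the remaining lists. Of 21 Smad partner and turnover genes, 2 rose and 0 fell (limma before adjustment, 4 and 2). Both genes that rose encode feedback inhibitors of TGF-beta Smads, namely Pmepa1, with 1302, 1322 and 1263 on Yap HET arrays, against 1603, 1588 and 1605 on Yap KO arrays (log2 change 0.30 ± 0.05, limma adjusted p = 0.00963), and Skil, with 708, 746 and 676 on Yap HET arrays, against 879, 859 and 864 on Yap KO arrays (0.29 ± 0.05, limma adjusted p = 0.0182). Of 22 genes induced by TGF-beta in other settings, 3 rose and 0 fell (limma before adjustment, 9 and 3), with a median log2 change of 0.09. Integrin gene Itgb5 (0.33 ± 0.05), the matricellular gene Postn (0.72 ± 0.13) and the transcription factor gene Snai2 (0.52 ± 0.12) were those that rose. Of 14 genes induced by BMP in other settings, Tbx3 (0.47 ± 0.09) and Tbx2 (0.34 ± 0.08), T-box repressors of the atrioventricular canal, rose and Prdm6, a repressor of smooth muscle differentiation (-0.38 ± 0.07), fell (limma before adjustment, 2 and 5), with 10 of the 14 below 0 and a median of -0.06. Dropping 1 array took the 12 rises over these lists to 4 (the first Yap HET or the second Yap KO array), 6 (Yap KO replicate 3) or 7 (Yap HET replicate 3). It took the 2 falls to 0 for Yap HET replicate 1, to 4 for Yap HET replicate 2 and to 1 for Yap KO replicate 2. Eng and Postn are also among the endothelial and mesenchymal markers given with the marker sums.

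**Figure D4:**
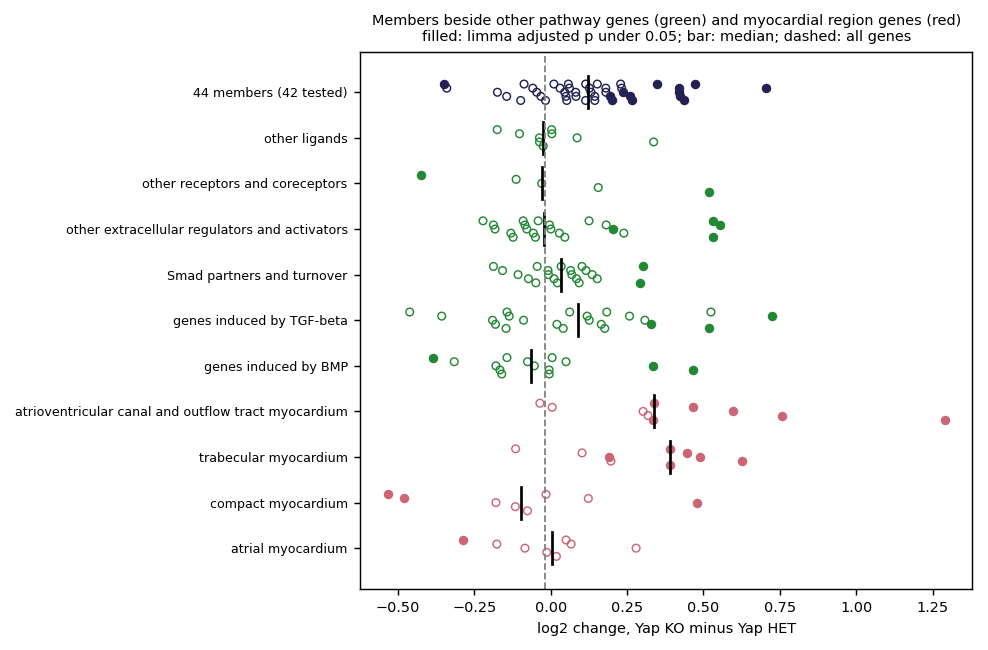
Log2 change (Yap KO minus Yap HET) of each tested gene in the members, in 6 lists of other pathway genes (green) and in 4 lists of myocardial region genes (red); filled points passed a limma adjusted p of 0.05, bars are list medians and the dashed line is the median of all genes tested. Medians of the pathway lists lie between -0.06 and 0.09, that of the members at 0.12, and those of the atrioventricular canal and trabecular lists at 0.34 and 0.39. Those of the compact and atrial lists lie at -0.10 and 0.003.

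Because Bmp2 and Bmp10 mark particular parts of the myocardium, genes of those parts were read from the same fit. Of 10 genes of atrioventricular canal and outflow tract myocardium, 6 rose and 0 fell (limma before adjustment, 7 and 0), with a median of 0.34. They were Has2, which makes the hyaluronan of the cardiac jelly (1.29 ± 0.05), Sema3c (0.76 ± 0.09), Rspo3 (0.60 ± 0.10), Wnt11 (0.34 ± 0.06), Tbx3 and Tbx2, the last pair also in the BMP list. Of 9 trabecular genes tested, 6 rose and 0 fell (limma before adjustment, 7 and 0), with a median of 0.39. Among them were Irx3 (0.63 ± 0.10), Kcne1 (0.49 ± 0.06), Sema3a (0.45 ± 0.09), Slit2 (0.39 ± 0.06) and the natriuretic peptide genes Nppb (0.39 ± 0.08) and Nppa (0.19 ± 0.05). Of 8 compact myocardium genes, Hey2 (-0.53 ± 0.10) and Mycn (-0.48 ± 0.06) fell and Hk2 (0.48 ± 0.10) rose. Among these 8, 6 had a log2 change below 0, with a median of -0.10 (limma before adjustment, 2 up and 3 down). Of 8 atrial genes 0 rose and Nr2f1 (-0.29 ± 0.07) fell, with a median of 0.003 (limma before adjustment, 1 up and 2 down). Over the region lists 13 of 35 rose (37.1%) and 3 fell (8.57%), against 5.16% and 4.76% of all genes tested. The rises were 7 after dropping Yap HET replicate 1 and 6 after dropping Yap KO replicate 2, and the falls were 1 after dropping Yap HET replicate 1 or 3.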

How the data were processed

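RNA of 6 samples was measured on arrays, and the authors deposited 1 linear intensity per probe set, from 2e-05 to 15701. The submitters' processing notes name RMA, a log2 method, without a version; how its output became linear is not given in the labels. Here the log2 of each intensity was taken. Of 35556 probe sets, the platform annotation gave 1 symbol to 21789, several to 1621 and none to 12146, and RefSeq (GRCm38.p6) matched 21698 by Entrez identifier. Each gene was read from its brightest probe set by mean log2 value. Means under the 40th percentile (85.7) were dropped, leaving 13632 of 19938 genes. No detection call was used, and intensities of different probe sets do not rank transcripts.

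Groups came from sample titles. The test was limma 3.58.1 (lmFit, eBayes) in R 4.3.3, group being its only term, with Benjamini-Hochberg adjustment over all genes tested and a threshold of 0.05. The SE is from that fit and the SD is over 3 arrays, whose number limits the precision. The code of the fit was also run on simulated data with independent normal noise. The outcome of that run is not given here. Array values were given for members past the threshold and, per subgroup, the 2 with the smallest p and the brightest, and up to 6 genes past the threshold were named per other list; further array values and the ratio pairs were added after values were seen. Members and lists were chosen with earlier results of these data known, and none was tested as a set. Alternatives changed the filter (none, or the 60th percentile), the probe set summary (mean), the log offset (16), the scaling (quantile, median, cyclic loess), the prior (trended and robust, or unmoderated), array weights, a replicate block, and the arrays included.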

Additional observations from a re-analysis of the deposited data

How the results depend on the processing

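Of the 12 members that rose, 4 did so with no filter, 3 with an unmoderated linear model, 6 with the replicate number as a block and, with others added, 19 with array weights. The 1 fall, Bmpr1b, became 0 with no filter, quantile normalization, median centring, cyclic loess, the unmoderated model and the block, and 2 with the trended prior or array weights. Leaving out 1 array gave 4 to 10 rises and 0 to 2 falls. Among other pathway genes, the 12 rises became 5 with no filter, 3 unmoderated and 25 with array weights (4 to 15 with 1 array left out), and the 2 falls became 1, 0 and 17, and 6 with the stricter filter or the trended prior (0 to 4). Among region genes, the 13 rises became 6 with no filter and 1 unmoderated (6 to 13), and the 3 falls became 1 in both, and 6 with the trended prior or array weights (1 to 2). Over all genes the 1353 calls became 508 with no filter, 231 unmoderated and 2246 with the trended prior. They became 4617 with array weights and 433 to 1375 with 1 array left out. The array weights ran from 0.426 to 7.597, the highest being that of Yap HET replicate 1. Calls with array weights therefore compare Yap KO mainly with that control. Yap1 and the subgroup medians kept their direction in the settings run, though not the order of the medians, and 0 of the 13 called members changed sign, against 8 of the others. The replicate numbers are not stated to pair samples, and deviations of same-numbered arrays correlated at -0.08, -0.17 and 0.12; the replicate block called 698 of all genes and 6 of the 13 members. The causes were not tested beyond what each setting changes. Near the filter level, signal over background limits what a dim probe set can show. Log2 changes of dim members depended on the scaling, in both directions. With quantile normalization, Bmpr1b moved from -0.35 to -0.29 and Nog from -0.14 to -0.08. Acvrl1 moved from 0.08 to 0.14, Tgfb1 from 0.42 to 0.47 and Tgfbr2 from 0.14 to 0.19. Whether background altered the size of these changes was not tested, and Inhbb and Grem1 were not tested.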
